A study of Mus musculus with 12 samples.

Results

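The cytosolic sulfotransferase genes are described here in mouse hepatocytes. In all, 10 genes (Sult1a1, Sult1b1, Sult1c2, Sult1d1, Sult1e1, Sult2a1, Sult2a2, Sult2a8, Sult3a1 and Sult5a1) were found by their symbol among 54839 features, out of 27 features named Sult. The genes were chosen by their values in the CCl4 against oil contrast, since the difference of Sult2a1 there was already known. Levels and folds between CCl4 and oil for these genes are therefore a description without a test, whereas Tom+ and Tom- hepatocytes were compared with one.

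RNA-seq was done on 3 libraries of each of 4 groups, 12 in all: Tom- oil, Tom+ oil, Tom- CCl4 and Tom+ CCl4. All libraries came from sorted live hepatocytes of male p16-Tom mice on a C57BL/6 background (age not given in the sources used here), which carry a tamoxifen-inducible Cre under the control of p16Ink4a and a Cre-dependent tdTomato reporter, and all mice received tamoxifen at 80 mg/kg. CCl4, a solvent toxic to pericentral hepatocytes, was injected in corn oil at 1 mL/kg every 3 days for 4 weeks, and oil mice received the vehicle. Because the Cre is driven by p16Ink4a and not by a hepatocyte gene, the reporter can mark any cell type. Labeling needs enough p16Ink4a promoter activity when tamoxifen is given, and the study names the labeled hepatocytes high in p16Ink4a. Tom- cells therefore need not lack p16Ink4a expression. Nothing in the labels says that the libraries of a group came from separate mice, so p-values measure the spread between these libraries.

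The reporter went against the label in 2 oil libraries. In the library labelled Tom- oil replicate 1 the reporter stood at 1771.6 CPM (counts scaled to the total of the library), and in that labelled Tom+ oil replicate 2 at 132.5 CPM. The other 5 Tom- libraries had 114.5 to 253.3, and the other 5 Tom+ libraries had 1198.5 to 1588.5. Only the pair numbered 3 differed in the reporter among the oil libraries as labelled, so the Tom+ against Tom- fold changes in oil are also given without these 2 libraries. Total counts ranged from 37568584 to 75331424. Summed TPM (counts scaled to gene length and library total) of 8 hepatocyte markers lay between 98630.1 and 136214.7 in every library. The summed TPM of 7 stellate cell or fibroblast markers was 2.95 to 7.34 in oil and 12.9 to 29 in CCl4, and that of 7 Kupffer cell or macrophage markers 9.52 to 65.7 and 35.5 to 82.7. Summed TPM of 6 liver endothelial markers was 39.9 to 64.3 in Tom- oil and 95 to 109.3 in Tom- CCl4, where 6 of 6 rose, and 41.7 to 73.4 and 60.8 to 76.6 in Tom+, where 0 were called. Of 7 zone 1 (periportal) hepatocyte markers, 0 were called in Tom- and 6 fell with CCl4 in Tom+. The part of these markers in the values below was not tested, and in bulk RNA fewer cells of a type and less RNA per cell cannot be told apart.

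Cytosolic sulfotransferases transfer a sulfonate group from PAPS, the activated form of sulfate, to hydroxyl or amino groups of small molecules. The product is more soluble in water and is usually excreted into bile or urine. In the liver, the Sult1 enzymes act mainly on phenols, catecholamines, thyroid hormones and estrogens, and the Sult2a enzymes on hydroxysteroids and bile acids. In mice, several Sult2a genes and Sult3a1 are known for higher expression in the female liver than in the male liver.

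The Sult2a genes lie next to each other on chromosome 7 and share long stretches of sequence, which bears on how reads can be assigned to them. The first 90 coding bases are shown for the 3 listed Sult2a genes and for Sult2a5, a neighbor of Sult2a2 (GENCODE models on GRCm38, the mm10 build). Capitals mark bases that differ from Sult2a1 after the sequences are placed side by side from the start codon.
Sult2a1 (chr7:13837267-13837356, minus strand): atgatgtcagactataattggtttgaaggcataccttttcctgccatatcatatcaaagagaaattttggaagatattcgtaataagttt
Sult2a2 (chr7:13733559-13733648, plus strand): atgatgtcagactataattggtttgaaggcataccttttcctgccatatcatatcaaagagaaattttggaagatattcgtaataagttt
Sult2a5 (chr7:13624045-13624134, plus strand): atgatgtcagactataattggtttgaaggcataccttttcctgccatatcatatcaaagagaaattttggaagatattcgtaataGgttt
Sult2a8 (chr7:14427830-14427919, minus strand): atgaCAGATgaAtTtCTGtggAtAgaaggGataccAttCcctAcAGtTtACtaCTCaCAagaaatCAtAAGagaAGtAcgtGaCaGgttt

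In this stretch Sult2a2 had 0 differences from Sult2a1, Sult2a5 had 1 and Sult2a8 had 37. Over the aligned coding sequence, Sult2a1 was 91% identical to Sult2a2, 94.9% to Sult2a5 and 69.1% to Sult2a8. The annotated Sult2a2 model is short, with 4 exons and 582 coding bases against 6 and 855 in Sult2a1. Of all 100-base windows along the Sult2a1 exons, 11.4% also occurred in another gene, all of them in Sult2a2. The share was 34.6% for Sult2a2 and 16.6% for Sult2a5, whereas it was 0% for Sult2a8 and Sult3a1. Sult2a1 and Sult2a2 values are therefore uncertain as single genes, and Sult2a8 and Sult3a1 do not share windows of that length with any other annotated gene.

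Deposited counts that were not whole occurred in genes with shared windows and in others without them. Sult2a1 had a value that was not whole in 6 of 12 libraries, such as 322.08 and 628.25 counts in Tom- CCl4 replicate 3 and Tom+ CCl4 replicate 2. Sult2a2 was not whole in 5 libraries, and the unlisted neighbors Sult2a3, Sult2a4, Sult2a5 and Sult2a6 in 4, 2, 2 and 3. Sult2a7 and Sult2a8, at the other end of the cluster, had whole counts in all 12. Outside the cluster, Sult1a1 was not whole in 8 libraries, Sult5a1 in 3 and Sult1d1 in 1, and the other 4 listed genes in 0. Fractions were common in the table, since 69.5% of the 16674 features above 0 in every library had at least 1 such value. Against an abundant gene such as Sult1a1, with 10770.55 counts in Tom- oil replicate 2, a fraction is small, whereas Sult2a4 in Tom- CCl4 replicate 3 had 0.5 in all.

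By level per length, the family was led by Sult1a1, the phenol sulfotransferase, in every group. Its mean was 382.5 ± 43.8 TPM in Tom- oil, 411.0 ± 34.5 in Tom+ oil, 321.3 ± 32.2 in Tom- CCl4 and 398.0 ± 49 in Tom+ CCl4 (SD, n = 3). Sult2a8, a hepatic bile acid sulfotransferase, came next with 307.6 ± 19.6, 259.2 ± 28, 153.0 ± 72 and 214.2 ± 113.2 TPM in the same order. Sult1d1, which acts on catecholamines, followed, with group means of 69.5 to 103.7 TPM. Sult1a1 did not overlap with Sult2a8 in any group, but Sult2a8 and Sult1d1 overlapped in both CCl4 groups.

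The order below these genes differed between oil and CCl4. In Tom- oil the libraries of neighboring ranks Sult1d1 (81.5 TPM), Sult3a1 (49.5), Sult5a1 (34) and Sult1b1 (29.8) overlapped. In Tom- CCl4, Sult2a2 stood next to Sult1d1 with 70.9 ± 35 TPM, and further down Sult5a1 (23.7), Sult2a1 (22.1) and Sult1b1 (17.2) each overlapped with the next. In Tom+ CCl4, Sult2a2 had 85.5 ± 58 TPM, and Sult1b1 (24.7), Sult2a1 (23) and Sult5a1 (17.4) followed with overlapping libraries. In oil, Sult2a1 and Sult2a2 stood just above Sult1e1 at the foot of the list, at 0.436 and 2.58 TPM in Tom- and 0.437 and 2.19 TPM in Tom+. Sult1e1, the estrogen sulfotransferase, was last in all groups with means of 0 to 0.59 TPM. The sum over the 10 genes was 892.8 ± 20.1 TPM in Tom- oil, 839.0 ± 56 in Tom+ oil, 683.2 ± 108.7 in Tom- CCl4 and 871.1 ± 202.9 in Tom+ CCl4, so the libraries of Tom- oil lay above those of Tom- CCl4, and the Tom+ groups overlapped.

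**Figure D1:**
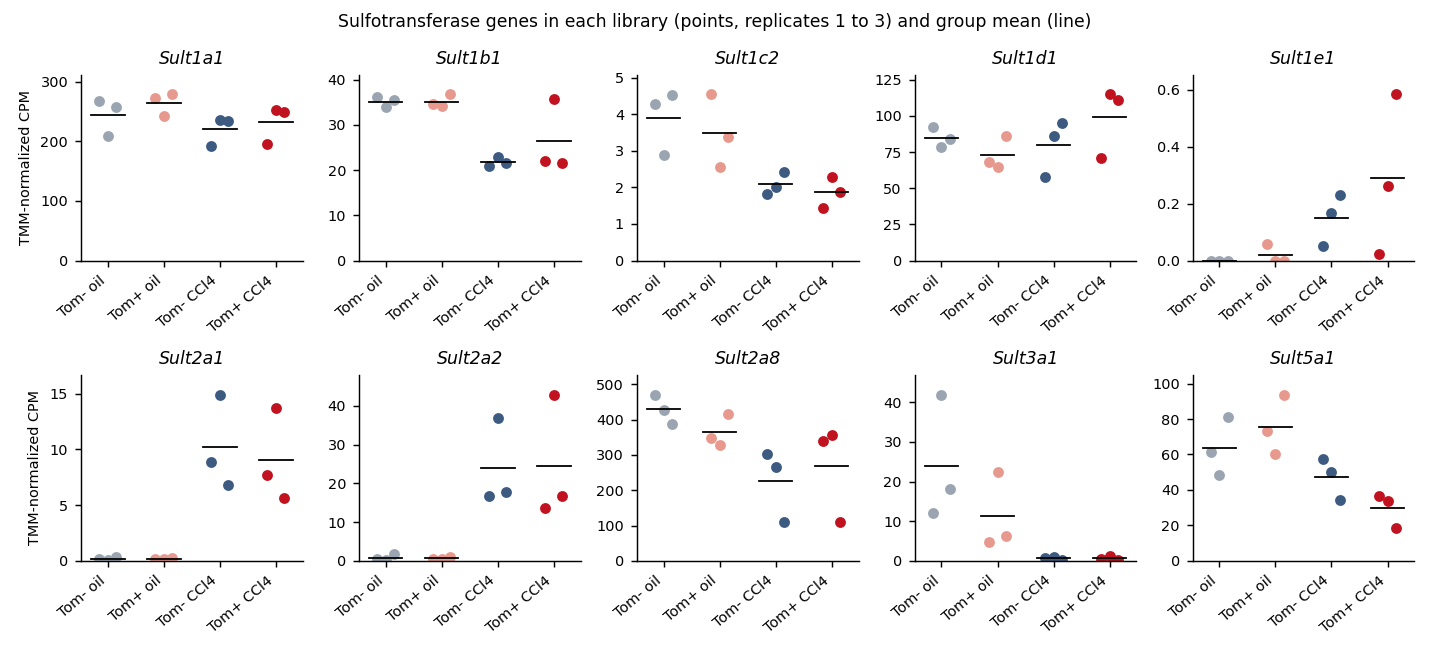
TMM-normalized CPM (vertical axis, from 0, a different range in each panel) of the 10 sulfotransferase genes in each library; points are replicates 1 to 3 and lines are group means. Sult2a1 and Sult2a2 lie near 0 in oil and between 5.66 and 42.9 in CCl4, whereas Sult3a1 shows the opposite and Sult1a1 is similar in all groups.

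Sult2a1 and Sult2a2, which sulfonate hydroxysteroids and bile acids, were the listed genes with the largest excess in CCl4 at usable depth. Sult2a1 had 0.158, 0.0775 and 0.327 CPM (normalized by TMM, as all CPM values of genes below) in Tom- oil replicates 1 to 3 and 8.9, 14.9 and 6.8 in Tom- CCl4. In Tom+ it had 0.13, 0.153 and 0.294 in oil and 7.71, 13.7 and 5.66 in CCl4. Every CCl4 library was therefore above every oil library, and the log2 fold change was 5.74 (SE 0.53) in Tom- and 5.61 (SE 0.53) in Tom+. The oil values rest on few reads, 26 counts in Tom- and 29 in Tom+ over 3 libraries each.

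Sult2a2 had 0.369, 0.271 and 1.76 CPM in Tom- oil and 16.7, 37 and 17.9 in Tom- CCl4. Its Tom+ values were 0.549, 0.515 and 1.03 CPM in oil and 13.6, 42.9 and 16.7 in CCl4. The groups again did not overlap, with a log2 fold change of 4.87 (SE 0.77) in Tom- and 5.17 (SE 0.78) in Tom+. Tom- oil replicate 3 was the highest oil library for both genes, and without it the Tom- fold change was 6.47 for Sult2a1 and 6.23 for Sult2a2. Without Tom+ CCl4 replicate 2 the Tom+ value of Sult2a2 was 4.47. Replicate 2 was the highest CCl4 library for both genes and in both fractions. The ratio of Sult2a2 to Sult2a1 CPM was 1.76 to 3.13 in CCl4 and 2.33 to 5.38 in oil.

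Since reads of the near-identical genes can be exchanged, the cluster was also summed. Over all Sult2a features, Sult2a8 holds most of the counts, and the log2 fold change of the sum was -0.68 (SE 0.41) in Tom- and -0.24 (SE 0.41) in Tom+. The Tom+ value turned to 0.11 without Tom+ CCl4 replicate 3. Without Sult2a7 and Sult2a8, a sum chosen after these values were seen, it was 5.18 (SE 0.72) in Tom- and 5.13 (SE 0.71) in Tom+, and 6.39 in Tom- without Tom- oil replicate 3. Summed TPM of Sult2a1 to Sult2a6 was 1.33 to 7.33 in Tom- oil, 2.46 to 4.93 in Tom+ oil, 79.3 to 172.2 in Tom- CCl4 and 79 to 217.0 in Tom+ CCl4. The excess in CCl4 was therefore present however the reads were divided among these 6 genes.

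The unlisted neighbors were low. Sult2a5 had a mean of 0.0939 ± 0.103 CPM in Tom- oil and 6.52 ± 2.77 in Tom- CCl4, and 0.193 ± 0.2 and 5.23 ± 2.17 in Tom+ (SD, n = 3). Sult2a3 had 0.0577 and 1.17 CPM in Tom- and 0.0997 and 1.02 in Tom+. Sult2a6 was at or under 3 counts in every oil library, and its CCl4 mean was at least 21.1-fold higher (Tom-) or at least 22.6-fold higher (Tom+), taking 3 counts per oil library as the limit. Sult2a7 had the opposite order, with means of 1.37 ± 1.02 CPM in Tom- oil and 0.159 ± 0.086 in Tom- CCl4, although the Tom- oil library of replicate 3 (0.204 CPM) lay within the CCl4 range of 0.0845 to 0.253.

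**Figure D2:**
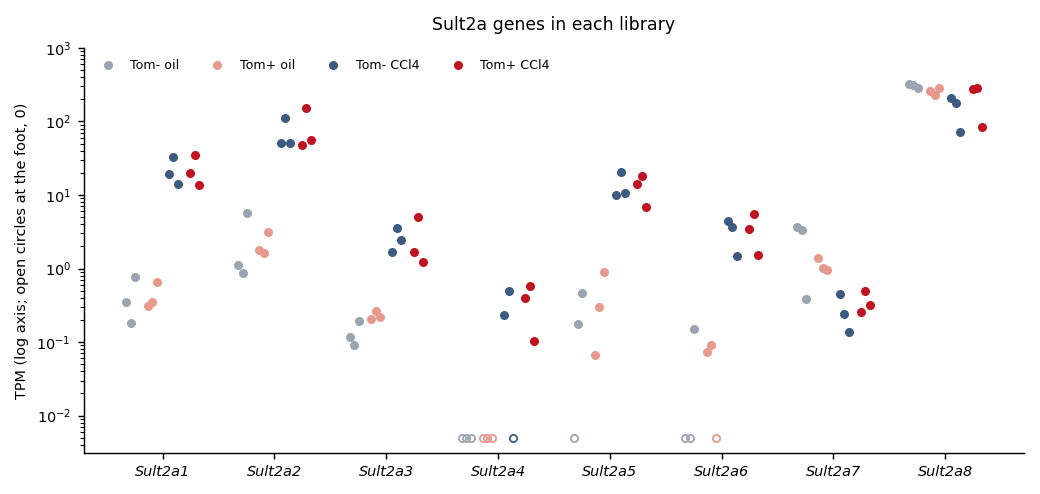
TPM (log axis) of Sult2a1 to Sult2a8 in each of the 12 libraries, with open circles at the foot of the plot for libraries at 0; colors are the 4 groups. The CCl4 libraries of Sult2a1, Sult2a2, Sult2a3, Sult2a5 and Sult2a6 lie above the oil libraries, Sult2a7 and Sult2a8 do not follow them, and Sult2a8 is the most abundant in every library.

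Sult2a8 stood at a far higher level than its neighbors and, like Sult2a7, was not higher in CCl4. It had 470.6, 428.2 and 388.2 CPM in Tom- oil and 303.7, 264.6 and 111.3 in Tom- CCl4, without overlap and with a log2 fold change of -0.92 (SE 0.45). In Tom+ it had 346.8, 329.0 and 417.2 CPM in oil and 339.9, 355.3 and 111.1 in CCl4, which overlapped, with a log2 fold change of -0.44 (SE 0.45). Replicate 3 was the low CCl4 library in both fractions, and without it the log2 fold change was -0.59 in Tom- and -0.07 in Tom+. The ratio of Sult2a8 to Sult2a1 CPM was 1187.3 to 5523.8 in oil and 16.4 to 44.1 in CCl4. It differed mostly through Sult2a1, with log2 fold changes of 5.74 in Tom- and 5.61 in Tom+. In oil the ratio rests on few Sult2a1 reads, 26 counts in Tom- and 29 in Tom+.

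Sult3a1, an amine sulfotransferase, was the listed gene with the largest deficit in CCl4. It had 12, 41.9 and 18.1 CPM in Tom- oil and 0.657, 0.94 and 0.253 in Tom- CCl4. Its Tom+ values were 4.85, 22.4 and 6.39 CPM in oil and 0.468, 1.2 and 0.188 in CCl4. All oil libraries were above all CCl4 libraries, and the log2 fold change was -5.32 (SE 0.94) in Tom- and -4.22 (SE 0.89) in Tom+. Without the 2 oil libraries whose reporter went against the label it was -5.64 and -3.21, and without Tom- oil replicate 2 it was -4.65 in Tom-. Its neighbor Sult3a2, 90.9% identical in the aligned coding sequence, was low at 0.479 ± 0.325 CPM in Tom- oil and 0.143 ± 0.179 in Tom+ oil. Sult2a1 and Sult3a1 thus had opposite orders in the same libraries.

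Sult5a1 was lower in CCl4 mainly in Tom+. It had 61.2, 48.4 and 81 CPM in Tom- oil and 57.4, 50.3 and 34.6 in Tom- CCl4, which overlapped (log2 fold change -0.42, SE 0.30). In Tom+ it had 73.3, 60 and 93.7 CPM in oil and 36.3, 33.9 and 18.4 in CCl4, which did not (log2 fold change -1.35, SE 0.30). Whether the fractions differ in this respect is the test of the difference given below.

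The remaining genes belong to the Sult1 subfamily. Sult1a1 had 208.7 to 278.7 CPM over the oil libraries and 191.6 to 253.2 over the CCl4 libraries, with log2 fold changes of -0.15 and -0.19 (SE 0.13 each) in Tom- and Tom+. Sult1b1, which sulfonates thyroid hormones, had 33.9 to 36.1 CPM in Tom- oil and 21 to 22.8 in Tom- CCl4. In Tom+ CCl4 replicate 2 stood apart with 35.8 CPM, whereas the other libraries had 22 and 21.6. Sult1c2 had 2.89 to 4.52 CPM in Tom- oil and 1.82 to 2.41 in Tom- CCl4, and 2.56 to 4.54 and 1.44 to 2.29 in Tom+, with log2 fold changes of -0.90 and -0.91. Sult1d1 overlapped between oil and CCl4 in both fractions, with log2 fold changes of -0.09 and 0.44 (SE 0.20 each). Sult1e1 had 0 reads in the 3 Tom- oil libraries and 19 in the Tom- CCl4 libraries, against 4 and 42 in Tom+. Its levels, at most 0.584 CPM, did not allow a fold to be given.

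Counted over the list, 3 genes (Sult1e1, Sult2a1 and Sult2a2) were higher and 4 (Sult1b1, Sult1c2, Sult2a8 and Sult3a1) lower in every Tom- CCl4 library than in every Tom- oil library, where 19.3% and 16.8% of the 17121 genes tested were. In Tom+, 2 (Sult2a1 and Sult2a2) were higher and 3 (Sult1c2, Sult3a1 and Sult5a1) lower, beside 14.6% and 14.6% of all genes. The median log2 fold change was -0.28 in Tom- and -0.30 in Tom+ over the 10 genes and 0.00 over all genes in both. Sult1e1 rests on 0 counts in Tom- oil and 19 in Tom- CCl4, with 2 in Tom- CCl4 replicate 1, under the limit of 3. Sult1e1 and Sult2a1 passed the expression filter through their CCl4 libraries, which favors a place among the genes higher in CCl4. These counts belong to the contrast that chose the list and are given as a description.

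**Figure D3:**
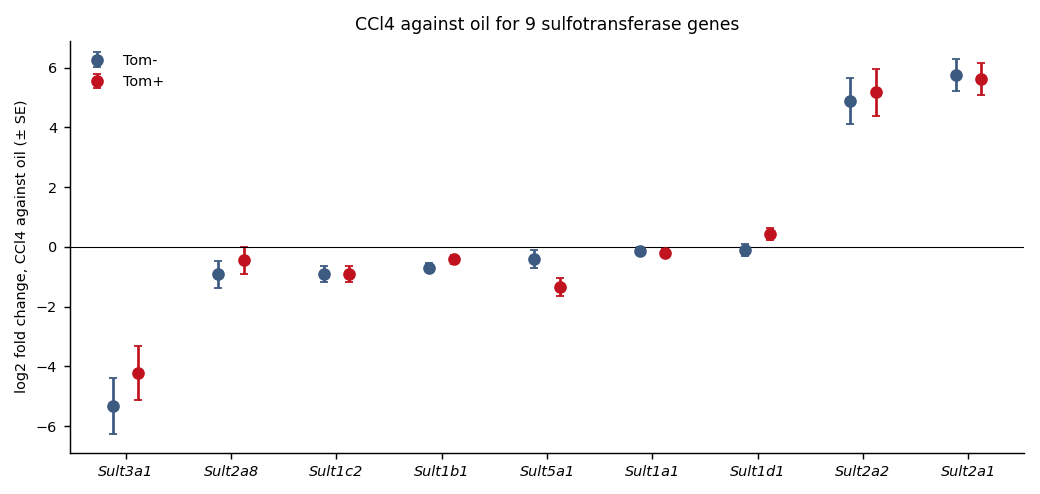
Log2 fold change of CCl4 against oil (vertical axis, bars are standard errors) in Tom- (blue) and Tom+ (red) for 9 of the 10 genes; Sult1e1 is left out because its counts are near 0. Sult3a1 lies at -5.32 and -4.22 and Sult2a1 at 5.74 and 5.61, with the other genes in between.

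Tom+ and Tom- hepatocytes were sorted by the reporter, and the study names the Tom+ cells high in p16Ink4a. Between them no sulfotransferase gene was called by edgeR's quasi-likelihood test at an adjusted p under 0.05 and a log2 fold change beyond 0.75. In CCl4 mice 0 of 10 were called beside 1.96% of the 17121 genes tested, in oil mice 0 of 10 beside 0%, and for the difference between them 0 of 10 beside 1.17%. At an unadjusted p under 0.05, 1 gene passed in CCl4 mice and 0 in each of the others. DESeq2 also called 0 in each comparison. The median log2 fold change over the 10 genes was 0.05 in CCl4 mice and -0.10 in oil mice. Libraries of the same number in both fractions resembled each other, as given in the processing section, so the fit with the replicate number as a block is printed where it alters a call. With this block, 0, 1 and 2 of the 10 genes were called in CCl4 mice, in oil mice and for the difference, beside 3.98%, 0.234% and 5.48% of all genes.

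No difference between the fractions was detected for Sult2a1 and Sult2a2. In CCl4 mice the log2 fold change of Tom+ against Tom- was -0.18 (SE 0.38, adjusted p = 0.829 by edgeR) for Sult2a1 and 0.03 (SE 0.60, adjusted p = 0.984) for Sult2a2. Sult2a1 was lower in Tom+ in 3 of 3 same-numbered pairs, at 0.866, 0.918 and 0.832 times the Tom- level. In oil mice the values were -0.04 (SE 0.69) and -0.27 (SE 0.87), on few reads. Sult2a8 gave 0.25 (SE 0.45) in CCl4 and -0.24 (SE 0.45) in oil mice. With the replicate block, the CCl4 values were -0.20 (SE 0.14) for Sult2a1, -0.06 (SE 0.16) for Sult2a2 and 0.20 (SE 0.10) for Sult2a8, and none was called.

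Sult5a1 was the gene that passed at an unadjusted p in CCl4 mice. It was lower in Tom+ in 3 of 3 pairs, at 0.633, 0.674 and 0.531 times the level of the Tom- library of the same number, and the groups overlapped. The log2 fold change was -0.68 (SE 0.30) with an adjusted p of 0.209 by edgeR (0.0457 before adjustment). With the replicate block it was -0.71 (SE 0.08) with an adjusted p of 7.5e-05, which is under the fold threshold. In oil mice Sult5a1 was higher in Tom+ in 3 of 3 pairs, at 1.2, 1.24 and 1.16 times the Tom- level, with a log2 fold change of 0.25 (SE 0.29, adjusted p = 0.904 by edgeR). The difference between CCl4 and oil was -0.93 (SE 0.42, adjusted p = 0.27) and, with the replicate block, -0.97 (SE 0.11, adjusted p = 0.000129), which is called. Without the 2 oil libraries whose reporter went against the label, the difference without a block was -1.04 (adjusted p = 0.415). Over all alternatives run, its adjusted p ranged from 0.000129 to 0.451.

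Zone markers also differed between the fractions in CCl4 mice, zone 1 in the direction of Sult5a1 and zone 3 in the opposite direction. The summed TPM of 7 zone 1 (periportal) hepatocyte markers was 5691.2 to 7562.5 in Tom- CCl4 and 4028.9 to 5482.1 in Tom+ CCl4, and that of 7 zone 3 (pericentral) markers was 1317.9 to 2063.7 and 3539.5 to 4491.9. In oil the zone 1 sums overlapped, at 8199.0 to 10368.6 in Tom- and 8572.2 to 11442.1 in Tom+. Of these markers, 4 of 7 zone 1 genes fell in Tom+ of CCl4 mice and 0 of 7 zone 3 genes were called (with the replicate block, 5 zone 1 genes were lower and 5 zone 3 genes higher), and no marker of either list was at 0. The 0 for zone 3 differs from the study. With DESeq2 and the same thresholds, the study named Glul, Lgr5 and Cyp2e1 among zonation markers that differed between these fractions. Summed TPM of 6 liver endothelial markers was 95 to 109.3 in Tom- CCl4 and 60.8 to 76.6 in Tom+ CCl4, where 3 of the 6 fell. The part of these markers in the values of Sult5a1 was not tested.

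Sult3a1 was lower in Tom+ oil libraries in 3 of 3 pairs, at 0.404, 0.536 and 0.352 times the Tom- level. The log2 fold change was -1.10 (SE 0.72, adjusted p = 0.808 by edgeR), and with the replicate block -1.22 (SE 0.14, adjusted p = 0.00115), which is called. Only the pair numbered 3 had the reporter of its labels, and the ratio in that pair was 0.352. Without the 2 libraries in doubt the fold change was -2.43 (adjusted p = 0.604). In CCl4 mice Sult3a1 gave 0.01 (SE 1.06), on 72 and 102 counts per group. The difference between CCl4 and oil was 1.11 (SE 1.27, adjusted p = 0.695) and 1.14 (SE 0.30, adjusted p = 0.024) with the block. Over the alternatives the adjusted p ranged from 0.00115 to 1 in oil and from 0.024 to 0.937 for the difference.

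Zone 3 markers had the same order as Sult3a1 in oil. Their summed TPM was 1961.8, 5287.3 and 3067.4 in Tom- oil replicates 1 to 3 and 810.4, 2501.9 and 1392.1 in Tom+ oil, so that replicate 2 was the highest in both fractions for the markers and for Sult3a1. With the block, 3 of the 7 markers were called lower in Tom+ oil. In CCl4 the sums of these markers were at least 1317.9 TPM in every library. Sult3a1 was at most 1.81 TPM in Tom- CCl4 and 2.73 TPM in Tom+ CCl4. A sum over 7 markers and a single gene cannot be compared by level. With CCl4 against oil, 1 of the 7 markers was called lower in Tom- and 3 were called higher in Tom+. The part of the markers in the values of Sult3a1 was not tested in either treatment.

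Sult1d1 was higher in Tom+ in 3 of 3 CCl4 pairs, at 1.23, 1.33 and 1.16 times the Tom- level, and in 1 of 3 oil pairs. Its log2 fold change in CCl4 mice was 0.31 (SE 0.20, adjusted p = 0.407 by edgeR), and 0.31 (SE 0.08, adjusted p = 0.0226) with the replicate block. The difference between CCl4 and oil was 0.53 (SE 0.29, adjusted p = 0.355), and 0.53 (SE 0.12, adjusted p = 0.0117) with the block. Both stayed under the fold threshold. Sult1a1 gave 0.07 (SE 0.13) in CCl4 and 0.11 (SE 0.13) in oil mice and was higher in Tom+ in 3 of 3 pairs in both. Sult1b1 gave 0.28 (SE 0.15) and 0.00 (SE 0.15), and Sult1c2 -0.17 (SE 0.26) and -0.15 (SE 0.25). Without the 2 oil libraries whose reporter went against the label, the log2 fold change in oil was 0.23 for Sult1a1, 0.03 for Sult1b1, 0.09 for Sult1c2 and -0.09 for Sult1d1. It was -0.04 for Sult2a1, -0.43 for Sult2a2, -0.11 for Sult2a8 and 0.35 for Sult5a1. Sult1c2 thus changed sign, and none of these genes was called. Sult1e1 had too few reads in oil for a fold.

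**Figure D4:**
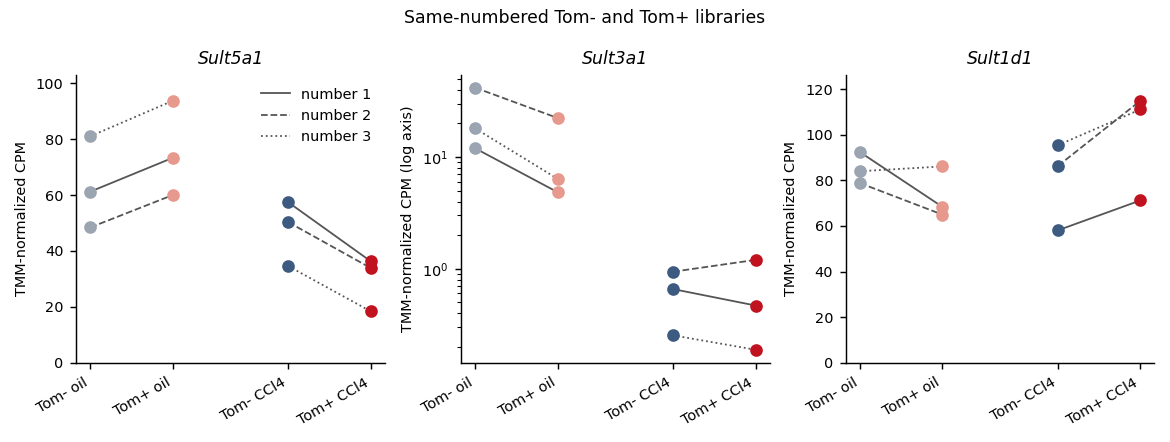
TMM-normalized CPM (vertical axis; log axis for Sult3a1) of Sult5a1, Sult3a1 and Sult1d1 in Tom- and Tom+ libraries, with lines joining libraries of the same number within oil and within CCl4 mice. Sult5a1 goes up in the 3 oil pairs and down in the 3 CCl4 pairs, Sult3a1 goes down in the 3 oil pairs, and Sult1d1 goes up in the 3 CCl4 pairs.

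The genes around sulfonation were tested as a list of 43 genes for sulfate uptake and PAPS synthesis, sulfatases, sulfate from sulfur amino acids and nuclear receptors of conjugation genes. This list too was drawn up with earlier results of these data known. In Tom-, CCl4 against oil, 0 rose and 1 fell, beside 6.33% and 1.59% of all genes. In Tom+, 2 rose and 2 fell, beside 2.9% and 2.34%. In Tom+ against Tom- of CCl4 mice, 2 rose and 0 fell, beside 0.222% and 1.74%. The median log2 fold change of the list was -0.11, -0.10 and -0.05 in these comparisons, and 0.00 over all genes.

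PAPS is made by Papss1 and Papss2. Papss2, the more abundant in CPM, had 408.7 ± 17.6 CPM in Tom- oil and 341.5 ± 16.7 in Tom- CCl4 (SD, n = 3), with a log2 fold change of -0.26 (SE 0.11, adjusted p = 0.115 by edgeR). In Tom+ it was 454.4 ± 33.5 and 429.5 ± 64.4 CPM. Papss1 rose in Tom+ from 5.42 ± 0.724 to 10.2 ± 2.11 CPM (log2 fold change 0.91, SE 0.23, adjusted p = 0.0247), and gave 0.43 (SE 0.23, adjusted p = 0.228) in Tom-. Slc35b2, which carries PAPS into the Golgi, and Bpnt1, which breaks down the product of PAPS use, were not called in either fraction; Bpnt1 gave -0.28 (SE 0.09, adjusted p = 0.0426) in Tom-, under the fold threshold.

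Among the genes that supply sulfate from cysteine, Got1 fell in both fractions, by 0.83 on the log2 scale in Tom- (SE 0.23, adjusted p = 0.0312 by edgeR) and by 1.47 in Tom+ (SE 0.23, adjusted p = 0.00315). Csad, which diverts cysteine sulfinate to taurine, rose in Tom+ from 434.3 ± 47.2 to 1020.9 ± 158.0 CPM (log2 fold change 1.23, SE 0.16, adjusted p = 0.000381). The difference between CCl4 and oil in the Tom+ against Tom- change was called for Csad (1.06, SE 0.22, adjusted p = 0.0352) and for Cdo1, cysteine dioxygenase (0.80, SE 0.17, adjusted p = 0.0407), and for 0 lower. With the replicate block it was called for 5 higher (also Ppara, Ahr and Nr1i3, adjusted p = 0.000352, 0.00051 and 0.00473) and 1 lower (Arsg, adjusted p = 0.00358). Of the sulfatases, Arsg fell by 0.91 in Tom+ (SE 0.18, adjusted p = 0.00684).

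Of 11 receptors tested, Ppara and Ahr rose in Tom+ against Tom- of CCl4 mice, by a log2 fold change of 0.80 (SE 0.16, adjusted p = 0.0133 by edgeR) and 0.76 (SE 0.17, adjusted p = 0.0261). Ahr lost its call without the 2 oil libraries whose reporter went against the label and under several other alternatives, and both calls were lost without Tom- CCl4 replicate 2 or Tom+ CCl4 replicate 1. Nr1i3, the constitutive androstane receptor, gave 0.23 (SE 0.31, adjusted p = 0.712). In CCl4 against oil Nr1i3 gave 0.11 (SE 0.31, adjusted p = 0.84) in Tom- and 0.87 (SE 0.31, adjusted p = 0.113) in Tom+.

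Because Sult2a1, Sult2a2 and Sult3a1 are known for sex-biased expression in mouse liver, other sex-biased genes were counted in the same male libraries. These lists were drawn up with earlier results of these data known, so their counts are given as a description. Of 19 male-biased genes tested, 0 rose and 11 fell with CCl4 in Tom-, beside 6.33% and 1.59% of all genes, and 0 rose and 8 fell in Tom+, beside 2.9% and 2.34%, with a median log2 fold change of -1.94 and -2.15. Selenbp2, for example, had 140.8 ± 25.9 CPM in Tom- oil and 17.4 ± 3.05 in Tom- CCl4 (SD, n = 3). Of 20 female-biased genes, 3 rose and 2 fell in Tom-, and 4 rose and 1 fell in Tom+, beside the same shares. Prom1 had 0.0176 CPM in Tom- oil and 5.56 ± 3.14 in Tom- CCl4, and Cux2, a female-biased transcription factor, 9.57 ± 1.41 and 30.6 ± 7.83. Sult2a1 and Sult2a2 were thus on the side of Prom1 and Cux2, and Sult3a1 on the opposite side.

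Genes with the most similar pattern were ranked by Pearson's r of log2 CPM over the 12 libraries, which mostly reflects the step between oil and CCl4. For Sult2a1 they were 1700047I17Rik2 (r = 0.982), Steap2 (0.978) and Prom1 (0.974). For Sult2a2 they were 1700047I17Rik2 (0.98), Reln (0.976) and Fam177a (0.967). For Sult3a1 they were Cyp2c67 (0.974), Mup19 (0.97) and Ugt3a1 (0.969). Sult2a8 was closest to Acss3 (0.962), and Sult5a1 to Cables1 (0.955), while for Sult1a1 the closest gene, Gm10179, reached 0.911.

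Promoter windows of 250 bases before to 50 after the start were available from RefSeq (GRCm38.p6) for 8 of the 10 genes, with none for Sult2a1 and Sult2a2. The 120 bases before the start are shown for Sult2a5 and Sult2a6, Sult2a genes that were higher in CCl4, and for Sult3a1, which was lower. Sult2a8 is shown as a neighbor that was not higher in CCl4, and its oil and CCl4 libraries overlapped in Tom+. RefSeq gives 2 starts for Sult2a8, and both are shown. Capitals mark, on either strand, TATAAA (the letters of the TATA box) and GTTAAT (the core of sites for hepatocyte nuclear factor HNF1). They also mark AGGTCA (the core of nuclear receptor sites) and TTCNNNGAA (the letters of sites for STAT factors). TATAAA was found by its letters at any distance from the start. It lies at -6 to -1 in Sult2a5, -49 to -44 in Sult2a6 and -29 to -24 at the other Sult2a8 start.
Sult2a5 (chr7:13623847-13623966, plus strand): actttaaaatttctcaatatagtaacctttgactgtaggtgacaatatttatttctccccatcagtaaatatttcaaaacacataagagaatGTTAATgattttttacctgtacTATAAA
Sult2a6 (chr7:14254871-14254990, minus strand): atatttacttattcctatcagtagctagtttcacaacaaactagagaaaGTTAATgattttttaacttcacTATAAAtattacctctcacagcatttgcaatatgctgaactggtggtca
Sult2a8 (chr7:14446588-14446707, minus strand): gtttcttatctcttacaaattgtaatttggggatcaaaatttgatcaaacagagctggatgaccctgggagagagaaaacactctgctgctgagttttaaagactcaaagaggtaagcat
Sult2a8, other start (chr7:14438552-14438671, minus strand): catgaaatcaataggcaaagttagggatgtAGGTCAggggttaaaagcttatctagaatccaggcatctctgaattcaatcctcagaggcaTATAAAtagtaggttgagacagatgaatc
Sult3a1 (chr10:33857602-33857721, plus strand): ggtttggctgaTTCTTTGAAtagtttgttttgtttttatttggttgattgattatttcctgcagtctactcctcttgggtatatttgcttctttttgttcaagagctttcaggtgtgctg

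GTTAAT was found in the windows of Sult2a3, Sult2a4, Sult2a5 and Sult2a6 and in neither window of Sult2a8, and 7.13% of the 32544 promoters of the same length hold it. Among the other listed genes it was found in Sult1a1 and Sult1d1. TTCNNNGAA was found in Sult3a1 alone among the listed genes and in 8.33% of all promoters. TATAAA stood in 13.6% and AGGTCA in 16.2% of all promoters; both windows of Sult2a8 hold TATAAA, and the other start also AGGTCA. The Sult2a windows share much of their sequence, so that a motif in several of them is not several observations.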

How the data were processed

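RNA-seq of polyA RNA was analysed for 12 libraries; groups, numbers and treatments are those of the labels and the study's methods. The submitters' processing notes name fastp (v0.23.2), HISAT2 (v2.1.0), DESeq2 (v1.42.1) and mm10. The program, strand setting and annotation behind the counts are not given in the sources used here. The deposited table gives expected counts of each feature without normalization: 30.4 to 32.9% of the non-zero values per library are not whole, and of the whole values from 1 to 20, 66.2 to 71.1% are even. Counts had been assumed whole when the tests were chosen, so values were rounded. Of the 54839 Ensembl identifiers, 54723 (99.8%) matched a symbol. All sample columns were used, and coordinates are those of the table.

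The members and lists were chosen with earlier results of these data known. The rounded counts were filtered with filterByExpr of edgeR (v4.0.16, R v4.3.3), which kept 17121 genes and all 10 members, scaled by TMM and compared by robust quasi-likelihood tests in one fit of 4 groups. A gene was called at a Benjamini-Hochberg adjusted p under 0.05 and a log2 fold change beyond 0.75. TPM used the lengths of the table. At total counts of 37568584 to 75331424 (median 47910752), 3 counts, taken as the detection limit, equal 0.0398 to 0.0799 CPM; this limit covers counting error only. All members are named; of the sulfonation genes, up to 4 called per list and Papss2, Slc35b2, Bpnt1 and Nr1i3, beside the 3 genes most like each member; not all are printed. Sex-biased genes named are examples chosen after their values were seen.

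The numbers in the labels pair Tom+ and Tom- within a treatment: deviations from the group means correlated at 0.511 to 0.712 in CCl4 and 0.348 to 0.549 in oil for the same number over 8379 genes. Correlations for different numbers were negative, which deviations from a group mean tend to give once those for the same number are positive. Alternatives were RLE and upper-quartile normalization, other filters, DESeq2 (v1.42.0), limma-voom (limma v3.58.1), the replicate block, unrounded counts, the groups compared alone, the adjusted p alone, and leaving out libraries. On simulated data for Tom+ against Tom- in CCl4 (16748 genes, 200 of them changed), edgeR called 100 of 107 genes changed by 2 on the log2 scale, 73 of 93 changed by 1, and 6 unchanged genes. The simulated libraries were independent of each other, without pairs, and changes were placed only in genes above a minimum level. These rates do not carry over to single members, such as Sult2a2 (SE 0.60) and Sult3a1 (SE 1.06) in CCl4 mice. Coding sequences came from GENCODE M21 and were aligned with Biopython (v1.88); figures used matplotlib (v3.10.9).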

Additional observations from a re-analysis of the deposited data

Results flagged for a closer look

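Sult5a1 is listed because the Tom+ against Tom- change went up in all 3 oil pairs and down in all 3 CCl4 pairs; the difference was -0.93 (adjusted p = 0.27 by edgeR) and passed only with the replicate block (-0.97, adjusted p = 0.000129). Sult3a1 and Sult1d1 are listed because the same difference passed an adjusted p of 0.05 with the block: 1.11 without it (adjusted p = 0.695) and 1.14 with it (adjusted p = 0.024) for Sult3a1, and 0.53 in both fits (adjusted p = 0.355 and 0.0117) for Sult1d1, which is under the fold threshold. All of them rest in part on the oil pairs numbered 1 and 2, in which the reporter did not differ as labelled.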

How the results depend on the processing

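The count of 0 sulfotransferase genes called in Tom+ against Tom- held under every alternative in CCl4 mice; with the replicate block it became 1 in oil mice (Sult3a1) and 2 for the difference (Sult3a1 and Sult5a1), and leaving out each library in turn gave 0 in each. Among sulfonation genes, the 1 called in Tom- (CCl4 against oil) became 0 without a filter beyond 1 count and 7 by the adjusted p alone, the 4 in Tom+ became 12 by the adjusted p alone, and the 2 in Tom+ against Tom- of CCl4 mice became 1 with RLE, upper-quartile, at least 10 counts in every library, DESeq2, without the 2 oil libraries or in the groups compared alone, and 5 by the adjusted p alone. Leaving out 1 library gave 0 to 1, 3 to 6 and 0 to 3 in these comparisons; the count of 1 was lost without Tom- oil replicate 3 or Tom- CCl4 replicate 3, and that of 2 without Tom- CCl4 replicate 2 or Tom+ CCl4 replicate 1. Oil and CCl4 groups did not overlap for 7 to 9 genes in Tom- and 5 to 7 in Tom+ with 1 library left out. The Sult2a sum in Tom+ ranged from -0.53 to 0.11 with 1 library left out, turning to 0.11 without Tom+ CCl4 replicate 3, and in Tom- from -0.87 to -0.37; Sult1d1 in Tom- (CCl4 against oil) ranged from -0.24 to 0.09 and turned to 0.09 without Tom- CCl4 replicate 1. The replicate block moved the Sult2a sum to -0.76 in Tom- and -0.39 in Tom+. For the difference, it moved the sulfonation genes called from 2 higher and 0 lower to 5 and 1, male-biased genes from 0 to 4 higher and 1 lower, and female-biased genes from 0 to 3 lower; in oil mice 3 male-biased genes became lower. In CCl4 against oil in Tom+, female-biased genes went from 4 higher and 1 lower to 3 and 3 (Cux2 lost its call, adjusted p = 0.0676). Oil and CCl4 libraries of the same number correlated at 0.00766 to 0.112 in Tom- and 0.00551 to 0.306 in Tom+. They share a number and were not taken as pairs in the main fit. For CCl4 against oil, however, the replicate block gave libraries of the same number a shared effect across treatments. The block values for CCl4 against oil rest on that matching, which the labels do not establish. By CPM, Sult2a8 and Sult1a1 exchange ranks 1 and 2. Causes of these changes were not tested, and Sult1e1, Sult2a1 in oil and Sult3a1 in CCl4 are limited by counts.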
